A study of Mus musculus with 96 samples.

Results

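The genes described here are 7 components of the machinery that takes a cell through the G1 phase of the cell cycle: the D-type cyclins Ccnd2 and Ccnd3, the kinases Cdk4 and Cdk6, and the kinase inhibitors Cdkn1b, Cdkn2c and Cdkn2d. They were taken by symbol, all 7 were present among the 24321 gene symbols of the deposited table, and they were followed cell by cell along the level of Hba-a1, an alpha-globin gene whose transcript accumulates as red cell precursors mature. The series holds RNA profiles of 96 individually captured mouse marrow cells, isolated on a Fluidigm C1 chip. All 96 carried the same labels, which are strain background C57BL/6, genotype Rpl11 +/lox (Rpl11 is a ribosomal protein gene) and cell type erythroid precursor. The sample titles call all of them Rpl11 heterozygous. No wild-type cells are in this group, and the labels used here give no Cre driver, treatment, time, age or number of animals. The cells therefore count as 1 sample, values are given with SDs over cells and exact Clopper-Pearson 95% intervals for shares, which cover counting error only, and no test was made.

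A D-type cyclin binds CDK4 or CDK6, and the active pair phosphorylates the retinoblastoma protein, which frees E2F factors to drive genes of DNA replication. The products of Cdkn2c and Cdkn2d belong to the INK4 family, which binds CDK4 and CDK6 directly, whereas the product of Cdkn1b belongs to the CIP/KIP family and binds cyclin-kinase complexes. Red cell precursors divide a limited number of times while they fill with haemoglobin and then leave the cell cycle, and cyclin D3 is known to set how many divisions they make.

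At least 1000 genes at 1 RPKM (reads scaled to transcript length and to the mapped total) or more were listed in 69 cells. Of these, 14 carried markers of other lineages and were set aside, 10 of them with early granule genes of neutrophils and 10 with monocyte genes, so that their transcripts went against the label. The remaining 55 cells are called erythroid cells below. Their Hba-a1 level ran from 723 to 570277 RPKM with a median of 402294 RPKM. Hba-a1 has a near-identical copy, Hba-a2, and the pair is not told apart. The cells were ordered by Hba-a1 and split into a low group (18 cells, 723 to 270948 RPKM), a middle group (19 cells, 307302 to 439819 RPKM) and a high group (18 cells, 443162 to 570277 RPKM). Genes per cell declined along this order, with medians of 3475 in the low, 1859 in the middle and 1237 in the high group. The ranges of the low group (2571 to 5507) and the high group (1003 to 2003) did not meet, and Spearman's rho between Hba-a1 and genes per cell was -0.94 over 55 cells. Estimated depth over all reads, globin included, did not fall, with medians of 6715900, 7318000 and 7963400 reads. Median Hba-a1 rose from 148628 to 402294 and 486366 RPKM, and the reads left for other genes were not estimated. The Hba-a1 level and the number of genes detected thus cannot be told apart in these cells. The rule that set cells aside limits markers of other lineages in the rest, so their low number is no separate support. No erythroid cell had more than 2 markers of any of 10 lists for other cell types at 10 RPKM or more. In the low group the 6 monocyte markers summed to at most 367 RPKM and the 5 early granule markers to at most 122 RPKM, with 3 and 2 of them at 0 in all cells, and in the high group the sums were at most 0.0842 and 0.783 RPKM, with 5 and 1 at 0 in all cells. The part of such RNA in the results was not tested. Of 10 late progenitor markers, medians of 9, 8 and 7 were at 10 RPKM or more in the 3 groups, and of 12 erythroblast markers 7, 8 and 7.5. Of 7 early progenitor markers the median cell of each group had 1 at 10 RPKM or more. At 1 RPKM or more, Pdzk1ip1 was in 43 of 55 cells, Ikzf1 in 17, Myb in 8, Cd34 and Gata2 in 1 each, and Kit and Meis1 in 0. Cell 68, which had the lowest Hba-a1, had 1 late progenitor marker and, globins included, 2 erythroblast markers at 10 RPKM or more.

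Differences are between group means of log2(RPKM + 1). A gene is called higher or lower when its high and low groups differed by at least 1 on that scale, in the same direction in each of the 3 run codes of the sample descriptions (SCP-1706013, SCP-170608, SCP-1706080, always given in this order). A run code entered this rule only with 3 or more cells in both groups, as all 3 had here. Smaller selections of cells can lose codes, and with none left a call rests on size only. The titles and the table's headers disagree with the descriptions, since they give SCP-1706080 for all 96 cells, and what the codes stand for is not stated. Every value within run codes, and every call not made by size only, rests on the codes of the descriptions. The differences between groups do not use them. By this rule 70.6% of the 4243 genes tested were lower and 1.08% higher in the high than in the low group, and their median difference was -2.22. Of the 7 members, Cdk4 and Ccnd3 were called lower and Cdkn2d higher. The other 4 were not called. The members that reached 1 RPKM in at least 10 erythroid cells, the condition for a tested gene, were Ccnd3, Cdk4, Cdkn2c and Cdkn2d.

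Cdk4 and Cdkn2d had the largest differences between the groups in opposite directions, and the 250 bases before their RefSeq starts are printed because they differ in E-boxes. Capitals mark CACGTG, the E-box bound by MYC and related factors, which reads the same on both strands. The sequences are from RefSeq on GRCm38.p6, another build than the mm9 of the expression values, and are written 5′ to 3′ on the strand of the gene.
Cdk4, chr10:127063285-127063534, + strand: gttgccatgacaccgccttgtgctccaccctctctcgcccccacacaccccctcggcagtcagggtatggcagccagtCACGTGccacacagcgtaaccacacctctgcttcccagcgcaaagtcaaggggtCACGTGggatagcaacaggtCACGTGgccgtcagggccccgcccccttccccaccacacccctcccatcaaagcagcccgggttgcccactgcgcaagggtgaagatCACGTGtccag
Cdkn2d, chr9:21291210-21291459, - strand: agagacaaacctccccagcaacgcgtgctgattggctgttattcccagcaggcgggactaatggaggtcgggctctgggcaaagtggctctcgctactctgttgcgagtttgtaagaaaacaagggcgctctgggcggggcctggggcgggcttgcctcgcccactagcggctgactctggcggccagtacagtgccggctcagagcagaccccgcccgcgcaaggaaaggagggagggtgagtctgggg
The Cdk4 stretch held 4 E-boxes, starting at positions -172, -118, -98 and -11 relative to the start site, and the Cdkn2d stretch held 0. Of 32851 RefSeq start regions of this length, 6.02% held at least 1 E-box and 7 regions held at least 4. An entry was found for 6 of the 7 members, and of the others Cdk6 held 1 E-box while all entries of Ccnd3, Cdkn1b and Cdkn2c held 0. The motif AGATAA of GATA factors, searched on both strands, was in 0 of these member regions, against 9.99% of all regions. The motif TTTNNCGC of E2F factors, searched likewise, was found 1 time in the Cdk6 region and in no other member region, against 4.28% of all. The motif CCNCNCCC of KLF factors, searched likewise, was found 4 times in the Cdk4 region and 3 times in the Cdkn2d region. Of all regions 45.9% held at least 1, 16.7% at least 3 and 10.7% at least 4. The entries of the other members held 0 to 4, the most in a Cdkn2c entry. Such matches describe the letters only.

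Cdk4, the kinase partner of D cyclins, was abundant in every cell with little globin and was not detected in the globin-rich cells. In the low group it ran from 0 to 738 RPKM with a median of 277 RPKM, in the middle group from 0 to 145 RPKM with a median of 0, and in the high group it was listed at 0 in all 18 cells. It was at 1 RPKM or more in 15 of 18 (83.3%, 58.6% to 96.4%), 4 of 19 (21.1%, 6.05% to 45.6%) and 0 of 18 cells (0% to 18.5%). The low and high groups overlapped only through the 3 cells of the low group at 0. Mean log2 levels were 6.86 ± 3.33 (SD, 18 cells), 1.20 ± 2.48 (19 cells) and 0 (18 cells), and the high group differed from the low one by -6.86.

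The course of Cdk4 was graded before it was lost. In the 7 cells under 100000 RPKM of Hba-a1 it was at 382 to 738 RPKM with a median of 584 RPKM. The 5 cells from 100000 to 200000 RPKM held 203 to 426 RPKM with a median of 256 RPKM, so that only the highest of them reached into the range of the cells before. From 200000 to 300000 RPKM of Hba-a1, 3 of 6 cells had Cdk4 and the highest was at 134 RPKM, and from 300000 to 400000 RPKM it was detected in 4 of 9 cells, at up to 145 RPKM. Detection ended at an Hba-a1 level of 374392 RPKM, above which 0 of 29 cells had 1 RPKM or more. This allows a share of up to 10.3%, taken as 3 divided by the number of cells and not as an exact interval. The highest value there was 0.0936 RPKM, where 3 reads of Cdk4 stand for 0.208 RPKM at the median depth. Spearman's rho with Hba-a1 was -0.78 over 55 cells, which share capture runs, a common RPKM denominator and the trend in genes per cell. Within the run codes rho was -0.82, -0.88 and -0.64, over 14, 16 and 25 cells.

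Cdk4 was 1 of many genes called lower. Of the tested genes, 27 had a more negative difference. Most of the difference of Cdk4 lay between the low and middle groups (-5.66), where 59.7% of tested genes were called lower, and the high and middle groups differed by -1.20, where 18.5% were. Of 8 housekeeping genes all 8 were called lower, with a median difference of -4.86, and Ppia (cyclophilin A, -7.67), Eef1a1 (a translation elongation factor, -7.07) and Gapdh (a glycolytic enzyme, -6.82) differed about as much as Cdk4. In erythroid cells with 1500 to 3000 genes, where the trend in genes per cell was narrower, the groups were cut anew by Hba-a1. Cdk4 then differed by -2.04 between groups of 8 cells and was no longer called. This selection leaves out all 12 cells with Hba-a1 under 200000 RPKM, where Cdk4 was highest, and begins at 212180 RPKM. Among cells with at least 2000 genes, likewise cut anew into groups of 8 cells, Cdk4 differed by -7.97. It was called lower there, as were 68.6% of tested genes. No run code had 3 cells in both of these groups, so the calls rest on size only, and the mix of run codes differed between the groups. Of the high group only cell 30, with 2003 genes, is in that selection. Without cell 68 the difference was -6.39, and with a pseudocount of 10 RPKM in place of 1 it was -4.14.

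**Figure D1:**
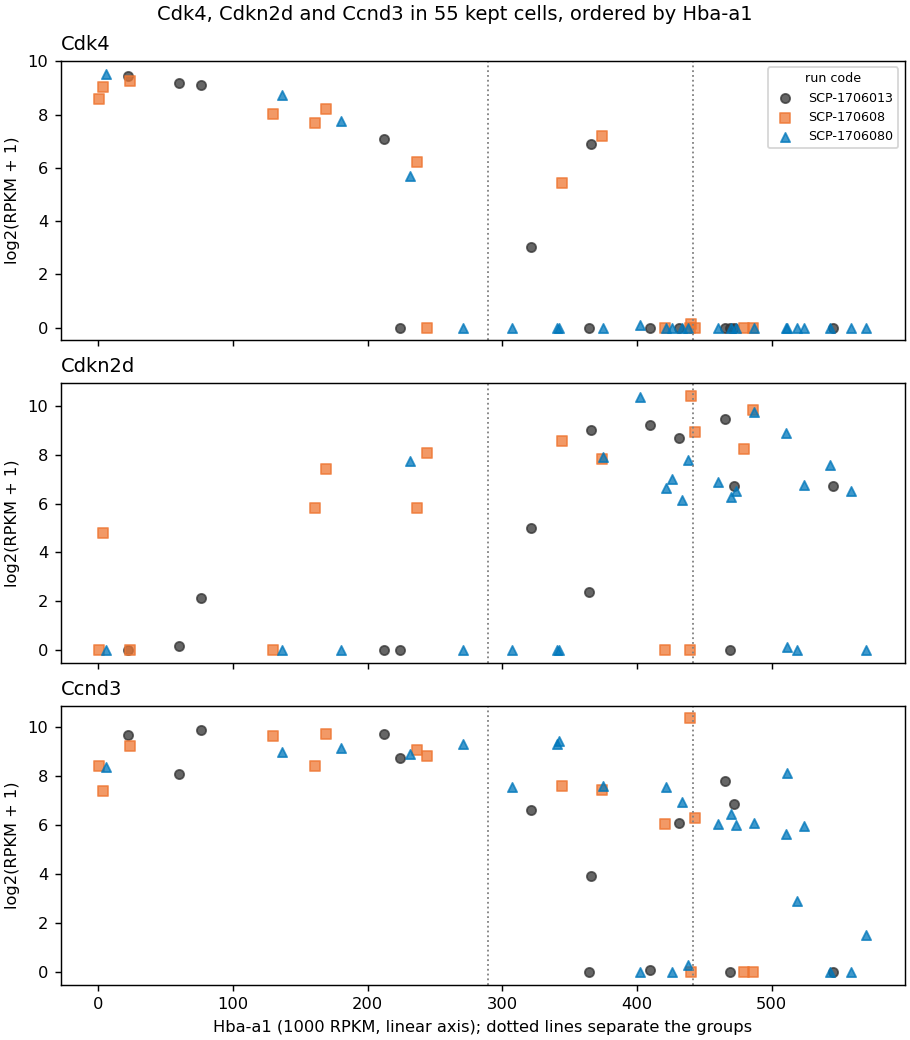
Levels of Cdk4, Cdkn2d and Ccnd3 as log2(RPKM + 1) in each of the 55 erythroid cells against Hba-a1 in units of 1000 RPKM, with symbols for the 3 run codes and dotted lines between the low, middle and high groups. Cdk4 is present in all 12 cells under 200000 RPKM of Hba-a1 and in 0 of the 28 cells from 400000 RPKM, where Cdkn2d is present in 22.

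Cdk6, the other kinase that D cyclins activate, was sparse. It ran from 0 to 10.8 RPKM in the low group, with 5 of 18 cells at 1 RPKM or more, and was found in 1 of 19 cells of the middle group, at 18.0 RPKM, and in 0 of 18 of the high group. Of its 6 positive cells, 4 were among the 7 with Hba-a1 under 100000 RPKM. Its median was 0 in each group, and the high and low groups differed by -0.77, short of a call. Cdk6 was called lower among cells with at least 2000 genes (-1.42) and without the cells of SCP-1706013 (-1.07). In these settings 68.6% and 79.2% of tested genes were called lower. With only 6 positive cells Cdk6 is itself not among the tested genes. Its former call rests on size only and its latter on run code SCP-1706080 alone. In the low group Cdk4 was higher than Cdk6 on this length-corrected scale, with mean log2 levels of 6.86 ± 3.33 and 0.77 ± 1.36 (SD, 18 cells).

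Ccnd3, which encodes cyclin D3, was the most widely detected member and was lower but not lost in globin-rich cells. In the low group it was in 18 of 18 cells, at 167 to 934 RPKM with a median of 510 RPKM. In the middle group 13 of 19 cells had it, with a range of 0 to 1308 RPKM and a median of 97.5 RPKM. The high group had it in 12 of 18 cells (66.7%, 41.0% to 86.7%), with a range of 0 to 275 RPKM and a median of 54.4 RPKM. Of the 18 low cells, 16 were above the highest cell of the high group, while the highest single value, 1308 RPKM, was in cell 73 of the middle group. Means were 8.96 ± 0.66, 5.09 ± 3.76 and 3.87 ± 3.19 on the log2 scale, a difference of -5.09 between high and low, and each of the 3 run codes showed it, at -5.54, -6.73 and -4.51. Unlike Cdk4, Ccnd3 stayed level up to 300000 RPKM of Hba-a1, with medians of 335, 562 and 501 RPKM in the first 3 steps of 100000 RPKM, and was at 187, 64.8 and 4.11 RPKM in the next 3. Among cells with at least 2000 genes, with groups cut anew by Hba-a1, its difference was -1.03. With 1500 to 3000 genes it was -2.52. Ccnd3 was still called lower in both cases, where 68.6% and 56.2% of tested genes were. The former call rests on size only and the latter on run code SCP-1706080 alone. These selections change the span of Hba-a1 that is compared.

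Ccnd2, which encodes cyclin D2, was found in 4 of 18 cells of the low group, 1 of 19 of the middle group and 0 of 18 of the high group. Its highest value in the low group, 24.9 RPKM, was in cell 68, and the 1 positive cell of the middle group was at 28.2 RPKM. The groups differed by -0.70, and by -0.43 without cell 68, neither of which is a call. When the 14 cells with markers of other lineages were not set aside, it differed by -3.11 and was called lower, beside 67.7% of tested genes. The remaining D cyclin, Ccnd1, was found in 1 of 55 erythroid cells, at 6.68 RPKM.

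Cdkn2d, an INK4 inhibitor of CDK4 and CDK6, took the opposite course to Cdk4. In the low group it ran from 0 to 266 RPKM with a median of 0, in the middle group from 0 to 1370 RPKM with a median of 130 RPKM, and in the high group from 0 to 928 RPKM with a median of 106 RPKM. Cells with at least 1 RPKM numbered 7 of 18 (38.9%, 17.3% to 64.3%), 14 of 19 (73.7%, 48.8% to 90.9%) and 14 of 18 cells (77.8%, 52.4% to 93.6%). The groups overlapped, since 3 cells of the high group were at 0 and the highest cells of the low group exceeded the median of the high group. Mean log2 levels were 2.33 ± 3.23, 5.63 ± 3.91 and 6.08 ± 3.52, a difference of 3.75 between high and low, against an SD over cells of 3.38. The run codes gave 5.28, 5.03 and 3.85.

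Higher genes were rare in this comparison, at 1.08% of those tested, and 5 of the 4243 had a larger difference than Cdkn2d. Most of the change lay between the low and middle groups (3.31), where 1.6% of genes were called higher, and the high and middle groups differed by 0.44, where 0.424% were called higher. Cdkn2d was in 17 of 20 cells with Hba-a1 from 400000 to 500000 RPKM, at a median of 177 RPKM, and in 5 of 8 cells above that, at a median of 97.7 RPKM. The course was therefore not a steady climb. Spearman's rho with Hba-a1 was 0.41 over 55 cells, and 0.56, 0.67 and 0.29 within the run codes. With groups cut anew among cells with 1500 to 3000 genes Cdkn2d differed by 2.83, and with at least 2000 genes by 1.60. It was called higher in both, where 2.42% and 5.87% of tested genes were. The former call rests on run code SCP-1706080 alone and the latter on size only. These groups span other Hba-a1 levels than the main ones.

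The differences were also computed on rescaled values. With every cell rescaled to a sum of 1000000, all tested genes had a median difference of -2.53, Cdk4 differed by -6.88, Ccnd3 by -5.83 and Cdkn2d by 2.82. With globin genes removed before rescaling the median was -2.11, and the same genes differed by -7.58, -4.64 and 5.15. Relative to those medians Cdk4 was at -4.34 and -5.46 and Cdkn2d at 5.36 and 7.26, where the deposited values gave -4.65 and 5.96.

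Cdkn2c, the other INK4 inhibitor, was present in 5 of 18 low, 9 of 19 middle and 8 of 18 high cells. Its values ran from 0 to 209, 0 to 150 and 0 to 153 RPKM, so the ranges overlapped almost fully. The high and low groups differed by 0.91, short of a call, and run code SCP-170608 went the other way, at -2.33, against 1.29 and 2.89 in the others. With the cells of SCP-170608 or of SCP-1706013 left out, Cdkn2c was called higher, beside 1.42% and 1.74% of tested genes. Without SCP-1706013, SCP-170608 had fewer than 3 cells in the high group. Its direction then did not enter the rule, and the call rests on SCP-1706080 alone. Cdkn2c was in 7 of 20 cells with Hba-a1 from 400000 to 500000 RPKM and in 7 of 8 cells above that. At least 1 of the INK4 transcripts Cdkn2c and Cdkn2d was present in 10 of 18 low cells, 15 of 19 middle cells and 17 of 18 high cells (94.4%, 72.7% to 99.9%).

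Cdkn1b, the CIP/KIP inhibitor, was found in few cells of each group. It was at 1 RPKM or more in 3 of 18, 2 of 19 and 4 of 18 cells, and its highest value was 14.6 RPKM. The groups differed by 0.32, and the run codes differed in sign, with 1.15, -0.38 and 0.19.

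**Figure D2:**
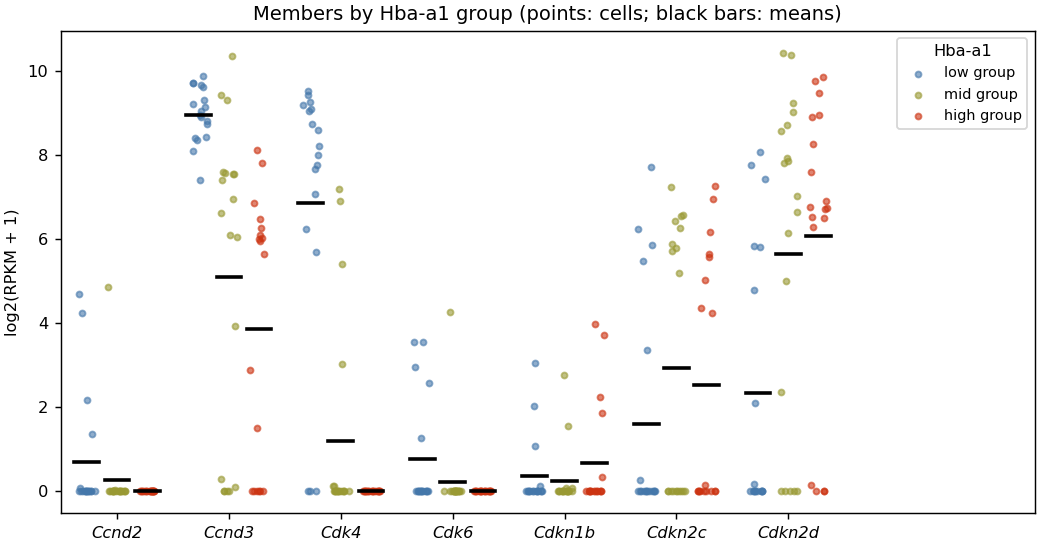
Level of each of the 7 members as log2(RPKM + 1) in the low (18 cells), middle (19 cells) and high (18 cells) group by Hba-a1, where points are cells, black bars are means and sideways scatter only separates points. Cdk4 and Ccnd3 are lower and Cdkn2d is higher to the right, and Ccnd2, Cdk6 and Cdkn1b lie mostly at 0.

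The members were ranked by RPKM, which divides reads by transcript length. Transcripts ran from 1106 bases (Cdkn2c) to 11525 bases (Cdk6), and other effects of length on these levels were not tested. In the low group the order of mean log2 levels was Ccnd3 (8.96), Cdk4 (6.86), Cdkn2d (2.33), Cdkn2c (1.61), Cdk6 (0.77), Ccnd2 (0.70) and Cdkn1b (0.35). The gap from Cdk4 to Cdkn2d, 4.53, was wider than the SD over cells of either gene, and each other gap between neighbours was smaller than the larger of their SDs. In the high group Cdkn2d (6.08) came first, before Ccnd3 (3.87), Cdkn2c (2.52) and Cdkn1b (0.67), while Cdk4, Cdk6 and Ccnd2 were at 0. No gap between neighbours there exceeded the larger SD.

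The levels of Cdk4 and Cdkn2d were also compared within cells, on values that share the cell's own total. The group means of their difference follow from the means of each gene and are no further support for the opposite courses. In the high group, where Cdk4 was at 0, the difference is the Cdkn2d level with its sign changed. The log2 level of Cdk4 minus that of Cdkn2d was 4.53 ± 5.10 in the low, -4.44 ± 3.93 in the middle and -6.08 ± 3.52 in the high group (SD over 18, 19 and 18 cells), and the high and low groups differed by -10.61. Cdk4 exceeded Cdkn2d in 14 of 18 low cells and in 0 of 37 others. Cdkn2d exceeded Cdk4 in 2 of 18 low, 14 of 19 middle and 15 of 18 high cells, and the remaining 10 cells had neither above 0. In cells with 1500 to 3000 genes, with groups cut anew, the difference between groups was -4.87.

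Some cells held both genes. Of the 55 erythroid cells, 10 had both at 1 RPKM or more (18.2%, 9.08% to 30.9%), 9 had Cdk4 only, 25 had Cdkn2d only and 11 had neither. Cells with Cdk4 only had a median Hba-a1 of 59968 RPKM and none was above 212180 RPKM. Cells with both had a median of 233817 RPKM and ended at 374392 RPKM, and cells with Cdkn2d only began at 244308 RPKM and had a median of 460221 RPKM. Among the 10 cells with both, Cdk4 was the higher in 5 and Cdkn2d in 5. The 5 with more Cdk4 had Hba-a1 at up to 236440 RPKM, and the 5 with more Cdkn2d had it at 231194 RPKM or more. The closest values were in cell 59, with 74.0 RPKM of Cdk4 and 55.5 RPKM of Cdkn2d at 236440 RPKM of Hba-a1. Over all 55 cells rho between the levels of Cdk4 and Cdkn2d was only -0.24. The 11 cells with neither were spread from 224099 to 570277 RPKM of Hba-a1, and 7 of them came from run code SCP-1706080.

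**Figure D3:**
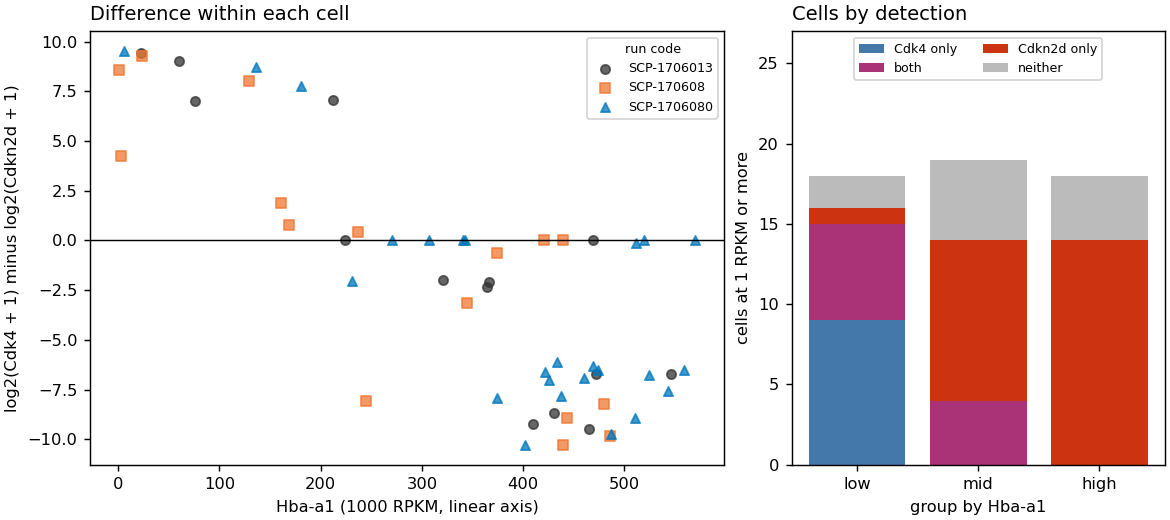
Left, the log2(RPKM + 1) level of Cdk4 minus that of Cdkn2d in each of the 55 erythroid cells against Hba-a1 in units of 1000 RPKM, by run code, with 0 marking equal levels. Right, numbers of cells with Cdk4 only, both, Cdkn2d only or neither at 1 RPKM or more in the low (18), middle (19) and high (18) groups, where Cdk4 only is seen in 9 cells of the low group and in 0 of the others.

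Taking the pathway as a set of parts, a D cyclin and a kinase partner were detected together in 16 of 18 low cells, 5 of 19 middle cells and 0 of 18 high cells. A D cyclin without Cdk4 or Cdk6 was seen in 2, 8 and 12 cells of these groups, and neither part in 0, 6 and 6 cells. The kinases were found without a D cyclin in 0 of 55 cells. All 19 cells with Cdk4 also had Ccnd3, which was present in 24 further cells. Of these 19, 15 were in the low group, where Ccnd3 was in 18 of 18 cells. An INK4 transcript without Cdk4 and Cdk6 was seen in 1 of 18 low, 10 of 19 middle and 17 of 18 high cells. Genes per cell fell across these groups as well, and 70.6% of tested genes were called lower. The same counts were not made for other sets of genes, so a change particular to this pathway was not tested. In these sparse data a cell without reads of a gene can still express it.

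Other genes of the pathway were counted against the 70.6% of tested genes called lower, the 1.08% called higher and the median difference of -2.22. Of 16 further kinases, cyclins and inhibitors of the G1 to S step, 8 were tested, 7 of these were called lower and 0 higher, and their median difference was -2.80, near that of all tested genes. Ccne1 and Ccne2, the E-type cyclins that act with Cdk2 after the D cyclins, differed by -6.12 and -3.84, and Ccnh, the cyclin of the CDK-activating kinase, by -4.30. Cdkn1c, Cdkn2a and Cdkn2b were listed below 1 RPKM in all 55 cells. Of 15 retinoblastoma family and E2F genes, 11 were tested and 5 were called lower and 0 higher (median -1.45), a smaller share than among all tested genes. Tfdp1, the partner of E2F factors, differed by -4.37 and E2f4, a repressive E2F, by -2.45. E2f8 (-2.01) was not called.

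Downstream, all 17 replication genes were called lower, with a median of -4.85, beside 70.6% and -2.22 over all tested genes, and the helicase genes Mcm6 (-7.32), Mcm7 (-6.34) and Mcm4 (-6.00) had the largest differences. Of 12 mitosis genes 2 were called lower and 1 higher, with a median of -0.78, beside 70.6% lower and 1.08% higher over all tested genes, and the difference between the lists was not tested. Ube2c, which helps to degrade mitotic cyclins, differed by 3.04, whereas Cdc20, an activator of the same pathway, differed by -2.00 and the kinase gene Aurkb by -1.25. Among 8 factors upstream of the D cyclins only 3 were tested, and 1 was called lower, the erythroid factor gene Gata1 (-5.06). Myc (-1.44) and Myb (-1.20) reached 1 RPKM in 7 and 8 cells and were under the filter.

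**Figure D4:**
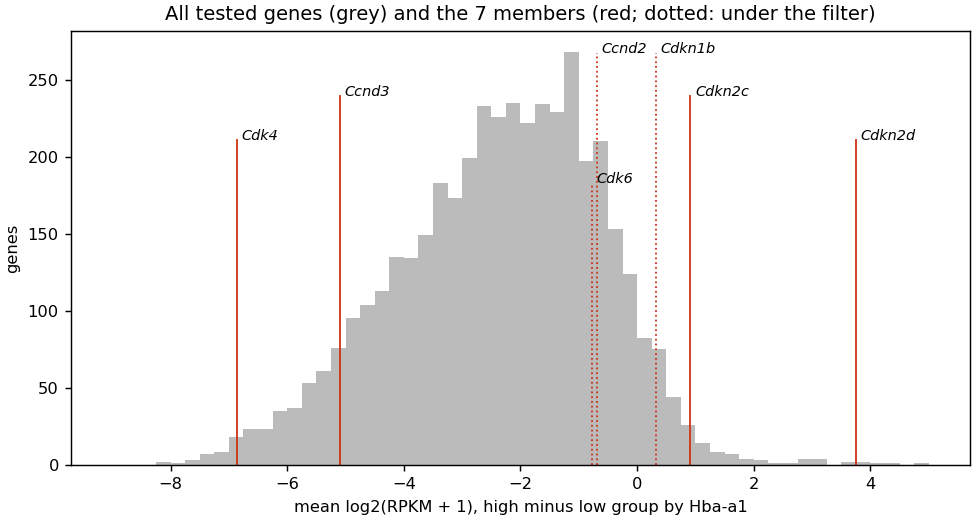
Distribution over the 4243 tested genes (grey bars, number of genes) of the difference in mean log2(RPKM + 1) between the high and low groups, with the 7 members as red lines, dotted for those under the filter. Cdk4 at -6.86 and Cdkn2d at 3.75 lie near opposite ends, around a median of -2.22.

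Of the 2272 genes that at least 20 erythroid cells had at 1 RPKM, those most like Cdk4 by Spearman's rho over the 55 cells were Siva1 (0.78), Mrps28 (0.77), Myl12a (0.77), Lsm7 (0.76) and Adk (0.76), where the median gene had 0.44. Mrps28 came closest to its shape, with mean log2 levels of 7.01, 1.35 and 0 in the low, middle and high groups. For Cdkn2d the likest were Spc25 (0.66), H2afx (0.59), Ube2c (0.56), Mxd3 (0.51) and Sgol1 (0.49), against a median of -0.26. Of these 5 genes only Ube2c followed Hba-a1, with a rho of 0.56, while the other 4 had rho from -0.10 to 0.13. These correlations share cells, depth and dropout with each other.

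The 14 cells set aside for markers of other lineages all had Ccnd2. It was in 14 of 14 of them (76.8% to 100%), at 1.86 to 98.5 RPKM with a median of 23.7 RPKM, against 4 of 18 cells of the low erythroid group (22.2%, 6.41% to 47.6%). Cdk4 was in 11 of 14 at a median of 328 RPKM and Ccnd3 in 12 of 14 at a median of 117 RPKM. Cdk6 was in 5 of 14, at up to 37.9 RPKM, and Ccnd1 in 6 of 14, at up to 46.6 RPKM. Of the inhibitors, Cdkn2d was in 4, Cdkn2c in 2 and Cdkn1b in 1 of 14 cells. These cells listed Hba-a1 at 49.6 to 4332 RPKM.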

How the data were processed

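The deposited values are RPKM per RefSeq transcript made by the authors, 1 column per cell. TopHat2 2.0.9 and mm9 are named in the submitters' processing notes. The counter and further settings were not given in the sources used here. Per the labels' protocols, cDNA was made with SMART-Seq chemistry on the C1 and libraries with Nextera XT. A gene took the value of its highest transcript in each cell (34899 rows, 24321 symbols). A cell needed 1000 genes at 1 RPKM, and was set aside if 1 of 10 non-erythroid lists had 3 markers or more, and 50% or more of its markers, at 10 RPKM. Groups of cells were cut by rank of Hba-a1. A pseudocount of 1 RPKM was used, which understates differences of low genes.

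Depth was estimated from the steps between low values, with transcript lengths for 97.6% of rows from a GENCODE annotation of another build, and ran from 1531000 to 11661300 reads in the erythroid cells. A median of 60.8% of low values lay within 0.06 of a whole number, so these are estimates, and whether a unit is a read or a pair is not settled. The depth estimate and the comparison of groups were each tested on simulated data. For depth, whole reads were simulated at the estimated depths. Recovery of those depths does not show that the estimates for the real cells are right. The libraries carry no molecular identifiers, so reads do not stand for separate molecules. Doublets were not called, given 96 cells.

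Members and lists were chosen with earlier results of these data known. Besides the members, the text names the 3 genes of each list with the largest differences and the 5 genes most like Cdk4 and Cdkn2d. Ccnd1, Cdkn1c, Cdkn2a and Cdkn2b and single cells were named after their values were seen. Computations used Python 3.11.15, numpy 2.4.6, pandas 2.3.3 and scipy 1.17.1.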

Additional observations from a re-analysis of the deposited data

How the results depend on the processing

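No paired analysis was possible because all cells carry 1 group label. With no replicates of a group, a value is said to have moved when it changed by more than 1 SD over cells (differences), 1 SD over run codes (correlations), its exact interval (shares) or 1.5 times (counts). Cdk4 stayed below 0 and Cdkn2d above 0 in all 17 alternatives, with ranges of -9.63 to -2.04 and 1.60 to 5.15, and Cdkn2d was called higher in each. With at least 2000 genes per cell no run code entered the rule, so calls there rest on size only. With 1500 to 3000 genes only SCP-1706080 entered it. Cdk4 moved to -9.63 and -4.14 with pseudocounts of 0.1 and 10 RPKM. In cells with 1500 to 3000 genes, an alternative chosen after seeing the data, Cdk4 was at -2.04 and its rho at -0.43. Cdk4 was not called there, since the cells of SCP-1706080, the only run code checked, had it at 0 in both groups. The within-cell difference was -4.87. There 1 member and 2 of the other G1 genes were lower, beside 56.2% of tested genes. This alternative leaves out all 12 cells with Hba-a1 under 200000 RPKM. The rho of Cdk4 was -0.60 with at least 500 genes per cell. Cells with both genes made up 32.0% among cells with at least 2000 genes. The number of members called higher was 2, with Cdkn2c added, in several alternatives. These were no cell set aside, groups formed within run codes, without SCP-1706013, without SCP-170608, and cells of at least 5000000 estimated reads. The last was also chosen after seeing the data. In this order 3.01%, 1.18%, 1.74%, 1.42% and 0.943% of tested genes were called higher. Without SCP-1706013 and with at least 5000000 reads, SCP-170608 had too few cells to enter the rule. Cdkn2c was lower in that code in the main comparison. The number called lower was 3 in 3 alternatives. Ccnd2 was added (-3.11) when no cell was set aside. Cdk6 was added with at least 2000 genes per cell (-1.42) and without SCP-1706013 (-1.07). In this order 67.7%, 68.6% and 79.2% of tested genes were called lower. Cdk6 is itself not among the tested genes, and without SCP-1706013 its call rests on SCP-1706080 alone. Over all genes tested, 2994 were lower and 46 higher. The lower genes were 1163 of 2068 with 1500 to 3000 genes per cell. The higher genes were 21 of 4243 with a pseudocount of 10 RPKM, 22 of 4119 rescaled and 137 of 4539 without globin. With at least 500 and 2000 genes per cell they were 73 of 4401 and 202 of 3443. With no cell set aside they were 176 of 5855, with cells split into 2 groups 26 of 4243, and without SCP-1706080 72 of 2914. At the median depth 3 reads of Cdk4 stand for 0.208 RPKM, and transcripts lost before sequencing cannot be counted.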

Other observations

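The 27 cells with fewer than 1000 genes were used in no comparison. Cdkn2d was at 1 RPKM or more in 6 of them, Ccnd3 in 5, and Ccnd2, Cdk4 and Cdkn2c in 1 each, while Cdk6 and Cdkn1b were in 0. Cell 6, with 53 genes, listed Cdkn2d at 5459 RPKM, and cell 36, with 708 genes, at 1964 RPKM, both above the highest value among the erythroid cells, 1370 RPKM. Cell 45, with 829 genes and Hba-a1 at 682 RPKM, listed Ccnd3 at 1398 RPKM, also above all erythroid cells. Cell 23, with 877 genes, listed Cdk4 at 28.7 RPKM and Ccnd2 at 6.74 RPKM at an Hba-a1 level of 285710 RPKM.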
